A study of Mus musculus with 6 samples.

Results

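The genes described here encode the UDP-glucuronosyltransferases of the Ugt1a, Ugt2a and Ugt2b groups and the cytosolic sulfotransferases of the Sult families. They were taken by symbol from the deposited table, in which 40 of 55487 gene identifiers carried such a name: 9 Ugt1a, 10 Ugt2a or Ugt2b and 21 Sult genes. Members were chosen by name alone, but the families themselves had been selected on measured values, the NEC and control FPKM of these same libraries, which were already known. The tests below therefore describe single genes within a fit of all genes, and a count of members is not independent support for anything.

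The tissue was terminal ileum, the end of the small intestine, of C57BL/6 mice at postnatal day 9, and RNA-seq libraries numbered 3 for NEC and 3 for control. NEC is necrotizing enterocolitis, and the labels describe a mouse model made by gavage with hyperosmolar formula, spells of hypoxia at 5% O2 that lasted 10 min and came 3 times daily over 4 days, and lipopolysaccharide given by mouth (4 mg/kg daily, postnatal days 6 and 7). The control labels carry the same treatment text while the design text calls those mice normal, so the feeding and handling of controls is not stated. Whether each library came from its own animal is not stated, and the p-values speak only of how far these libraries spread, which may in part be technical.

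Both enzyme families make small molecules more soluble so that they can leave the cell in bile, urine or the gut lumen. A glucuronosyltransferase sits in the endoplasmic reticulum and moves glucuronic acid from UDP-glucuronic acid onto bilirubin, steroids, phenols and drugs. A cytosolic sulfotransferase moves sulfate from the donor PAPS onto phenols, amines and steroids. Absorptive cells of the small intestine are known for carrying members of both families, next to liver and kidney.

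The Ugt1a genes are laid out in an unusual way. On chromosome 1 (mm10, 88055388 to 88220002) each of 9 members has its own first exon, and all are spliced to the same exons 2 to 5, which are 132, 88, 220 and 871 bases long. Of the exonic bases of Ugt1a9, 879 are its own and 1311 are common to the 9 members, so reads from the common part have to be divided by the authors' software. The antisense entry Gm20528, at 0.563 FPKM in NEC and 0.286 FPKM in control, overlaps Ugt1a exons on the other strand. Each first exon also has a promoter of its own. The stretches printed next are the 120 bases before the RefSeq start (build GRCm38.p6) of Ugt1a9 and Ugt1a10, whose first exons are neighbours at the 5' end of the cluster. They are shown because Ugt1a9 had the largest change of all members, as given further on, and capitals mark the bases that differ when both are laid side by side without gaps, shifted by 20 bases.
Ugt1a9 (chr1:88070659-88070778, plus strand): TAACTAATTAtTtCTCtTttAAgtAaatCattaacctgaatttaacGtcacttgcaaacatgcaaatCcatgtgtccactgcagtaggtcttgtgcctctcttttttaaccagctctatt
Ugt1a10 (chr1:88055291-88055410, plus strand): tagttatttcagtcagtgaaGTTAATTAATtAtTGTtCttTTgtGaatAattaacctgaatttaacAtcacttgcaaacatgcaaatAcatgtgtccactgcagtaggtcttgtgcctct

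Of the 100 bases set against each other, 79 were equal and 21 differed, and the longest equal run was 32 bases. Most of the differing letters lie in the part farther from the start. No gaps were allowed, and a gap there could turn some of them into equal letters. How far that part truly differs was not tested.

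RefSeq promoters, 300 bases each with 50 after the start, were at hand for 35 of the 40 members. Short letter runs bound by factors of liver, gut or the xenobiotic response were counted in them and in all 32851 promoters. The forkhead letters TGTTTAC were found in 5 of 35 genes (3.65% of all promoters) and the GATA letters AGATAA in 8 (11.2%). The CDX letters TTTATG stood in 2 genes (11.9% of all), the HNF4 letters CAAAGTCCA in 1 (0.475%), and the xenobiotic element core GCGTG in 5 (32.4%). The antioxidant element TGACNNNGC was in none of the 35 windows and in 12.4% of all promoters. The units differ: members were counted as genes, with 38 promoters for 35 genes, and the percentages are of single promoters. Of the 35 genes, 18 were expressed enough to be tested below. All letters were searched on both strands, no motif contains another, and neighbouring paralogs share promoter sequence, so these counts are descriptions only.

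The deposited values were read as FPKM, fragments mapped per kilobase of transcript and scaled to library depth. Their smallest steps gave a depth of 15.22 M to 18.66 M fragments per library, an estimate. The libraries were not alike: NEC 1 correlated with NEC 2 and NEC 3 at 0.942 and 0.932 over tested genes, on log2(FPKM + 1), against 0.972 between NEC 2 and NEC 3 and 0.975 to 0.978 among controls. In NEC 1 a single gene of the 7SL RNA, Rn7s1, took 42.7% of all FPKM, against 27.3% to 32.2% in the other 5 libraries. Enterocyte markers summed to 10892 to 13460 FPKM in NEC and 2975 to 3590 in control (10 genes, 8 with every NEC library above every control and 1, Mep1a, with every NEC library below, 9 reaching 1 FPKM). Apoa4 made up most of that sum, and without it the sums were 2718 to 3137 FPKM in NEC and 1296 to 1412 in control. The 7 general epithelial markers summed to 1073 to 1383 in NEC and 1092 to 1175 in control. Every NEC library lay above every control in 1 of them, Krt8, and below in 1, Krt19. Fibroblast markers summed to 89.5 to 289 FPKM in NEC and 529 to 661 in control, and smooth muscle markers to 141 to 678 in NEC and 767 to 912 in control, with 6 genes in each list and none at 0 throughout. NEC 1 was the lowest library in both of these lists. Immune markers summed to 85.5 to 100 FPKM in NEC and 51.4 to 103 in control (7 genes). All NEC libraries lay above all controls in 1 of these, Itgam, and below in 2, Ptprc and Cd3e. S100a8 was at 1.69 FPKM in control 1, against 26.0 and 25.0 in control 2 and 3. Endothelial markers summed to 18.1 to 24.8 in NEC and 29.7 to 34.0 in control (4 genes). Pancreatic acinar markers summed to 1.94 to 11.1 in NEC and 0.362 to 0.748 in control. There 1 of 6 genes, Ctrb1, reached 1 FPKM and 3 were at 0 throughout. Fewer cells of a type and less RNA per cell cannot be told apart in bulk tissue, and the part of these shifts in the results below was not tested. Of 10 hepatocyte markers, 4 reached 1 FPKM in any library, their sum was 2.61 to 8.83 FPKM in NEC and 9.78 to 10.6 in control, albumin (Alb) stayed at or below 0.103 FPKM and Ahsg was listed at 0 throughout.

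Much of both families was silent or nearly so in this ileum. Of the 40 members, 13 were listed at 0 in all 6 libraries: all 8 Sult2a genes, which act on hydroxysteroids and bile acids, the oestrogen sulfotransferase gene Sult1e1, Sult1c1, Sult3a1, Sult3a2 and Ugt2b37. At this depth 3 fragments of those transcripts would have read as 0.0919 to 0.266 FPKM, the limit of what a 0 allows, for counting error only. Another 7 had values but a mean under 1 FPKM and were not tested: Ugt1a2, Ugt2a1, Ugt2a2, Ugt2b1, Sult1c2, Sult5a1 and Sult6b1, none above 1.39 FPKM in a library. The remaining 20 entered the fit. Just inside the limit was Ugt1a8 with a mean of 1.06 FPKM and just outside Ugt1a2 with 0.722. Ugt1a5, Ugt1a8, Ugt1a10 and Sult2b1 passed the limit through their NEC libraries and Sult4a1 through its control libraries, so the counts over the 20 are descriptions.

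Most of the expressed members were higher in NEC. Of the 20, 12 passed as higher (BH-adjusted p under 0.05, limma on log2(FPKM + 1), Benjamini-Hochberg over 15806 genes) and 1 as lower, and 7 did not pass. Among all tested genes 38.2% passed, 7.69% as higher and 30.6% as lower. The median log2 change was 0.69 for the 20 members and -0.26 for all tested genes. With TMM scaling, which brought the median of all genes to 0.01, 15 members were higher and 1 lower, against 16.7% and 14% of all genes (30.7% in either direction). Every NEC library lay above every control library in 13 members and below in 2, against 11.8% and 47.3% of all tested genes. Without control 1 the members called higher were 8 of 20, beside 499 of 15595 genes. Without any other single library they were 9 to 14, beside 471 to 1566 genes. Leaving out any 1 control library gave 471 to 663 genes higher and 917 to 1979 lower, in place of 1215 and 4829. Many genes thus lost their call there. The median log2 change of the 20 members was 0.71 to 0.72 in those fits, against 0.69 with all libraries. The median SD within a group, on the log2 scale, was 0.211 in NEC and 0.0936 in control. The fit pools both groups, and the part of this unequal spread in the lost calls was not tested.

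**Figure D1:**
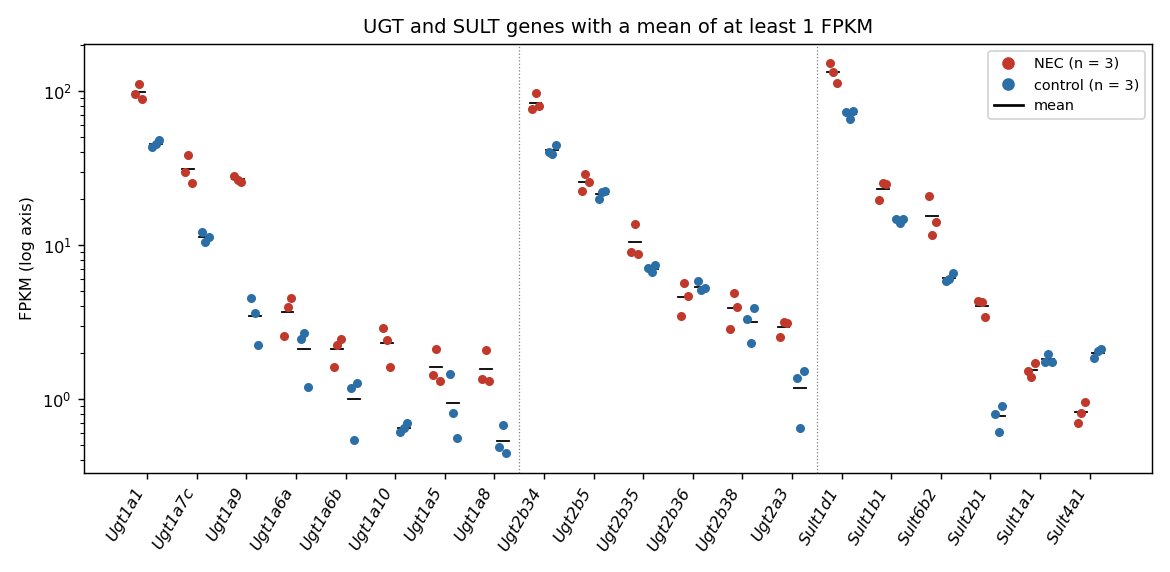
Values of the 20 tested members in each library, in FPKM on a log axis. Red points are the 3 NEC libraries, blue points the 3 control libraries and black lines the group means; dotted lines part the Ugt1a, Ugt2 and Sult genes. The 5 highest genes in NEC, Sult1d1, Ugt1a1, Ugt2b34, Ugt1a7c and Ugt1a9, have all NEC points above all control points.

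The Ugt1a locus as a whole was higher, and its sum depends less than single members on how the common reads were divided. The division still enters, because the summed values are scaled by length. The longest coding transcript has 3302 bases in Ugt1a7c and 2190 in Ugt1a9. The 9 genes of the locus summed to 165, 190 and 151 FPKM in NEC 1, 2 and 3, against 66.3, 65.3 and 65.8 FPKM in control 1, 2 and 3. The groups were far apart and the controls nearly equal. The ratio of the means was 2.56, and the sum, fitted as 1 feature, had a log2 change of 1.34 (SE of 0.11, limma BH-adjusted p = 0.00162). Over 14 alternative settings its change stayed between 1.25 and 1.68 and passed in each.

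Ugt1a1 encodes the enzyme that conjugates bilirubin (chromosome 1, 88211959 to 88218997) and was the most abundant Ugt1a member. It stood at 95.9, 111 and 88.4 FPKM in NEC and at 43.0, 45.5 and 47.8 FPKM in control. All 3 NEC libraries were above all controls, with a log2 change of 1.09 (SE of 0.11, limma BH-adjusted p = 0.00338).

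Ugt1a9 (chromosome 1, 88070800 to 88218997), whose product conjugates phenols, differed most among the members. Its values were 28.2, 26.3 and 25.6 FPKM in NEC and 4.53, 3.60 and 2.23 FPKM in control. The NEC libraries were close to one another, and the lowest of them was well above the highest control. The ratio of means was 7.74 and the log2 change 2.67 (SE of 0.20, limma BH-adjusted p = 0.00124), rank 28 from the top among 15806 genes.

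Ugt1a7c (chromosome 1, 88095062 to 88220002) is annotated with 998 exonic bases beyond the end of the common exons that no other member has, and with a transcript that uses the Ugt1a6a coding exon. It was at 29.7, 38.2 and 25.3 FPKM in NEC and at 12.1, 10.5 and 11.2 FPKM in control, with a log2 change of 1.37 (SE of 0.16, limma BH-adjusted p = 0.00425). No library broke the separation of the groups.

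The other 5 tested Ugt1a genes were of low level, none above 4.54 FPKM in any library. Ugt1a10 had 2.90, 2.42 and 1.61 FPKM in NEC and 0.611, 0.650 and 0.694 FPKM in control (log2 change 0.98, SE of 0.17, limma BH-adjusted p = 0.0096). Ugt1a8 averaged 1.58 ± 0.434 FPKM in NEC libraries and 0.537 ± 0.125 FPKM in control libraries (SD, n = 3 each) and Ugt1a6b, a gene for conjugation of simple phenols, had 1.62, 2.25 and 2.45 FPKM in NEC and 1.18, 0.543 and 1.28 FPKM in control. Both passed, with log2 changes of 0.74 and 0.65. The Ugt1a8 call was lost without any 1 of the control libraries (limma BH-adjusted p up to 0.0634), at log2 changes of 0.69 to 0.80. Without NEC 1 or NEC 2 the gene missed the 1 FPKM limit and was not tested. Among fits with 1 library left out, Ugt1a8 passed only without NEC 3 (limma BH-adjusted p = 0.0167). The Ugt1a6b call was lost under 9 of 13 settings (limma BH-adjusted p up to 0.106). Neither Ugt1a5, at 1.61 ± 0.426 FPKM in NEC and 0.939 ± 0.461 FPKM in control, nor Ugt1a6a, at 2.58, 3.96 and 4.54 FPKM in NEC and 2.46, 2.67 and 1.20 FPKM in control, passed (limma BH-adjusted p = 0.127 and 0.0944), and their groups overlapped. Ugt1a6a passed with TMM scaling, with quantile normalization and without NEC 1 (limma BH-adjusted p = 0.0295, 0.0241 and 0.0446), and Ugt1a5 with quantile normalization (limma BH-adjusted p = 0.0295). Every 75-base word of the longest coding Ugt1a6a transcript also occurs in another gene, so its level is uncertain. Over the 4 annotated transcripts of Ugt1a6a, though, 2142 exonic bases belong to no other Ugt1a member.

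The make-up of the locus lay apart between the groups for Ugt1a9, in a comparison within each library that scaling does not touch but the division of common reads does. Ugt1a9 made up 17.1%, 13.8% and 16.9% of the Ugt1a sum in NEC, against 6.83%, 5.51% and 3.38% in control. The share of Ugt1a1 was 58.2%, 58.6% and 58.5% in NEC and 64.9%, 69.7% and 72.7% in control. Shares sum to 100%, and with Ugt1a9 taken out Ugt1a1 made up 70.2%, 68.0% and 70.4% in NEC and 69.7%, 73.8% and 75.3% in control, with overlapping groups. Ugt1a10 made up 1.064% to 1.76% in NEC and 0.922% to 1.056% in control, nearly touching. That of Ugt1a7c averaged 18.3 ± 1.69% in NEC libraries and 17.1 ± 1.11% in controls (SD, n = 3 each), with overlapping groups. The shares are a description, with no test.

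**Figure D2:**
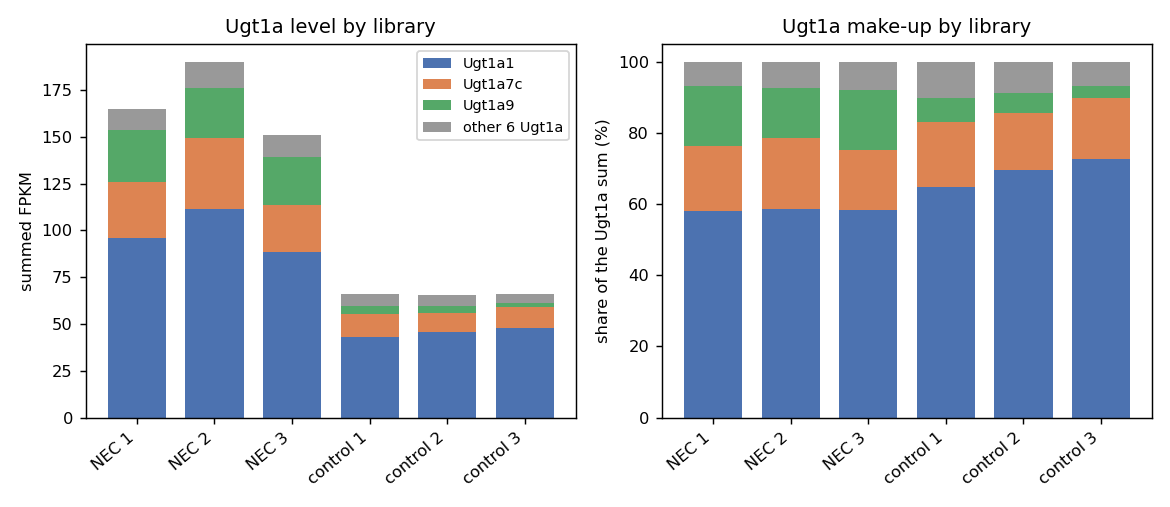
Ugt1a level and make-up in each library, NEC on the left of each panel. Left, stacked bars give FPKM summed over the 9 Ugt1a genes; right, the same as percent of the sum. The 3 NEC bars reach 151 to 190 FPKM and the 3 control bars 65.3 to 66.3, and the Ugt1a9 part is wider in each NEC bar.

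The Ugt2 genes stand beside 3 Sult1 genes on chromosome 5, 13 members within 0.702 Mb (86889767 to 87591594), and differed less evenly. Their 10 genes summed to 116, 153 and 126 FPKM in NEC and to 77.8, 75.4 and 85.1 FPKM in control, a ratio of means of 1.66. Ugt2b34 (86889767 to 86906937) made up most of that. It was at 76.1, 96.4 and 79.5 FPKM in NEC and at 40.2, 38.7 and 44.5 FPKM in control, a log2 change of 1.01 (SE of 0.12, limma BH-adjusted p = 0.00466). Its share of the Ugt2 sum was 63.2% to 65.4% in NEC and 51.4% to 52.2% in control.

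Ugt2a3, in human known to conjugate bile acids, was at 2.51, 3.15 and 3.11 FPKM in NEC and at 1.36, 0.652 and 1.52 FPKM in control. As a gene with 1 transcript these values could be read back as 90, 121 and 123 fragments in NEC and 45, 21 and 52 in control. The groups did not overlap (log2 change 0.87, SE of 0.18, limma BH-adjusted p = 0.0161), and the call was lost without control 1 (limma BH-adjusted p = 0.0516). 

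The other 4 tested Ugt2b genes did not pass. Ugt2b5, the second most abundant, was at 22.5, 28.9 and 25.8 FPKM in NEC and at 20.0, 22.0 and 22.5 FPKM in control, and the groups overlapped. Its log2 change of 0.24 (SE of 0.12, limma BH-adjusted p = 0.138) became 0.57 with TMM scaling and then passed (limma BH-adjusted p = 0.0092). Ugt2b5 also passed without NEC 1 (limma BH-adjusted p = 0.028). Ugt2b35 had 9.04, 13.7 and 8.69 FPKM in NEC and 7.07, 6.63 and 7.40 FPKM in control, without overlap. Its log2 change was 0.49 (SE 0.17, limma BH-adjusted p = 0.0615). It passed with TMM scaling, with quantile normalization and without NEC 1 or NEC 3 (limma BH-adjusted p = 0.0185, 0.0241, 0.0495 and 0.0434). Ugt2b36 averaged 4.59 ± 1.09 FPKM in NEC libraries and 5.37 ± 0.382 FPKM in control libraries (SD, n = 3 each). Its log2 change of -0.21 was 0.08 with TMM scaling. Ugt2b38 averaged 3.88 ± 1.01 FPKM in NEC and 3.16 ± 0.806 FPKM in control, with overlap. Ugt2b5 and Ugt2b38 hold 75-base words in common, 30.4% and 28.0% of their transcripts being found in other genes, so their split is uncertain.

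**Figure D3:**
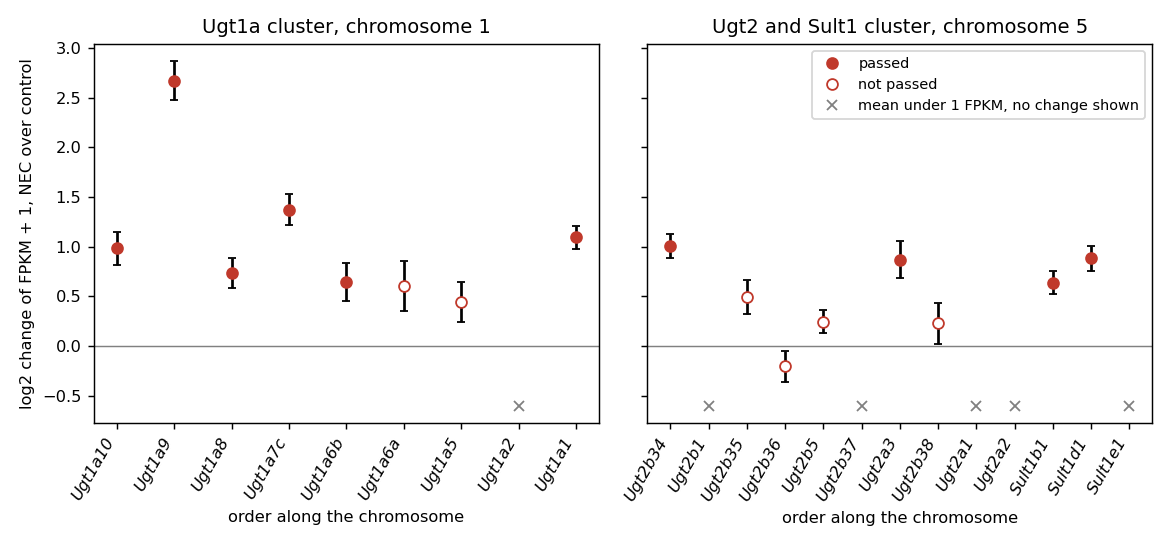
Log2 change of FPKM + 1, NEC over control, for members in their order along chromosome 1 (left) and chromosome 5 (right), with bars of 1 SE. Filled points passed the test, open points did not, and crosses mark members under a mean of 1 FPKM, drawn at an arbitrary height. Ugt1a9 stands highest at 2.67 and Ugt2b36 is the lone point below 0 at -0.21.

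Among the sulfotransferases, 4 of 6 tested genes were higher and 1 lower, against 7.69% and 30.6% of all tested genes. Of these, Sult2b1 passed the 1 FPKM limit through its NEC libraries and Sult4a1 through its control libraries, so the count is a description. Sult1d1, in mouse a sulfotransferase of catecholamines (chromosome 5, 87554645 to 87569027), was the most abundant member of either family. It was at 151, 134 and 113 FPKM in NEC and at 72.9, 66.1 and 74.0 FPKM in control. Every NEC library was higher (log2 change 0.88, SE of 0.13, limma BH-adjusted p = 0.00723). Its share of the Sult sum was 74.2 ± 2.86% in NEC libraries and 73.2 ± 0.720% in control libraries (SD, n = 3 each), with overlapping groups.

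Sult1b1, whose product acts on thyroid hormones and phenols (chromosome 5, 87513339 to 87538195), lies next to Sult1d1. It was at 19.6, 25.1 and 25.0 FPKM in NEC and at 14.7, 14.0 and 14.8 FPKM in control, a log2 change of 0.64 (SE of 0.12, limma BH-adjusted p = 0.0114). NEC 1 was the lowest of its group, opposite to Sult1d1, where it was the highest. The call was lost without control 1 or control 2 (limma BH-adjusted p up to 0.0562).

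Sult2b1, which sulfates cholesterol and pregnenolone (chromosome 7, 45729983 to 45784669), had the largest change among Sult genes. It was at 4.34, 4.27 and 3.39 FPKM in NEC and at 0.797, 0.609 and 0.902 FPKM in control, a ratio of means of 5.20 and a log2 change of 1.50 (SE of 0.13, limma BH-adjusted p = 0.00196). All NEC libraries lay well above all controls. Its exons overlap those of Lmtk3 on the other strand, and the strand setting of the counting was not given in the sources used here, so reads of the overlapping part cannot be told apart.

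Sult6b2 (chromosome 6, 142785204 to 142804502) was at 20.7, 11.5 and 14.2 FPKM in NEC and at 5.87, 5.98 and 6.53 FPKM in control, a log2 change of 1.17 (SE of 0.20, limma BH-adjusted p = 0.00973). NEC 1 was the highest by some distance, yet the other NEC libraries also exceeded all controls.

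Sult4a1, a sulfotransferase gene best known from brain, went the other way. It was at 0.699, 0.809 and 0.959 FPKM in NEC and at 1.84, 2.04 and 2.11 FPKM in control, and fell by 0.72 on the log2 scale, with an SE of 0.11 (limma BH-adjusted p = 0.00825). The phenol sulfotransferase gene Sult1a1 had 1.52, 1.39 and 1.70 FPKM in NEC and 1.73, 1.94 and 1.75 FPKM in control. It did not pass (log2 change -0.15, SE 0.11, limma BH-adjusted p = 0.306), although the groups did not overlap, and its change was 0.07 with TMM scaling and 0.23 with quantile normalization. Its exons overlap Sgf29 on the other strand.

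Genes that feed and clear the reactions were read from lists chosen for their function. Of the 3 genes for UDP-glucuronic acid, 2 were higher, against 7.69% of all tested genes. Ugdh, which oxidises UDP-glucose to UDP-glucuronic acid, was at 72.1, 90.6 and 66.0 FPKM in NEC and at 27.8, 26.3 and 25.4 FPKM in control (log2 change 1.48, SE of 0.13, limma BH-adjusted p = 0.00205). Slc35d1, which carries it into the endoplasmic reticulum, had 15.8, 13.3 and 10.5 FPKM in NEC and 5.25, 4.97 and 5.12 FPKM in control (log2 change 1.20, SE 0.15, limma BH-adjusted p = 0.00506). Groups were well apart in both. Ugp2, which makes UDP-glucose, averaged 42.2 ± 5.17 FPKM in NEC libraries and 44.9 ± 2.86 FPKM in control libraries (SD, n = 3 each) and did not pass (limma BH-adjusted p = 0.544).

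On the sulfate side, 3 of 7 tested genes were higher and 1 lower, against 7.69% higher and 30.6% lower of all tested genes, and 3 genes were below the limit. Bpnt1, which breaks down the used donor PAP in the cytosol, was at 41.2, 42.6 and 41.4 FPKM in NEC and at 19.1, 18.9 and 20.6 FPKM in control (log2 change 1.06, SE of 0.08, limma BH-adjusted p = 0.00142). Its Golgi counterpart Impad1 averaged 23.4 ± 2.73 FPKM in NEC libraries and 35.4 ± 3.49 FPKM in control libraries (SD, n = 3 each) and fell by 0.58 on the log2 scale, a call lost with TMM scaling and without control 1 or control 2. Of the PAPS synthases, Papss2 was higher at 7.41 ± 0.934 FPKM in NEC against 4.68 ± 0.175 FPKM in control, and the more abundant Papss1 had 53.4 ± 10.6 FPKM in NEC and 65.4 ± 2.61 FPKM in control and did not pass (limma BH-adjusted p = 0.158). The sulfate transporter gene Slc26a2 was higher, at 69.2, 42.1 and 41.2 FPKM in NEC and 28.6, 26.9 and 29.1 FPKM in control, with NEC 1 far above the rest. The calls of Papss2 and Slc26a2 were lost without any 1 control library (limma BH-adjusted p up to 0.0596 and 0.0871).

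Of 6 genes for the transport of conjugates, 1 was higher and 2 lower, the lower share being near the 30.6% of all tested genes (7.69% higher). Abcc2, the apical pump for glucuronides and other conjugates, was at 221, 399 and 325 FPKM in NEC and at 132, 131 and 134 FPKM in control (log2 change 1.20, SE of 0.21, limma BH-adjusted p = 0.0105). The NEC libraries were spread widely, and each was above the controls. Abcc1, an export pump of the basolateral side, averaged 1.09 ± 0.175 FPKM in NEC and 1.91 ± 0.0752 FPKM in control and fell by 0.48 on the log2 scale. Slco2b1, an uptake carrier of organic anions, averaged 0.810 ± 0.221 FPKM in NEC and 1.43 ± 0.158 FPKM in control and fell by 0.43. The Abcc1 call was lost under 7 of 13 settings and the Slco2b1 call under 11 of 13, TMM scaling and quantile normalization among them, and Slco2b1 passed the 1 FPKM limit through its control libraries alone. The single tested gene for removal of conjugates, the glucuronidase gene Gusb, did not pass, and of the protein tyrosine sulfotransferases Tpst1 fell by 1.20 on the log2 scale, at 2.07 ± 0.943 FPKM in NEC libraries and 5.85 ± 0.874 FPKM in control libraries (SD, n = 3 each). The Tpst1 call was lost without control 1 or control 2 (limma BH-adjusted p up to 0.0647).

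Of 18 tested transcription factor genes known to act on conjugation genes, 2 were higher and 2 lower, near or below the 7.69% higher and 30.6% lower of all tested genes, and for 14 the test gave no call. Gata4, a factor of the upper small intestine, was at 7.96, 7.28 and 3.74 FPKM in NEC and at 0.184, 0.0852 and 0.0622 FPKM in control. Its change was the largest of the list, no NEC library came near a control, and it passed the 1 FPKM limit through its NEC libraries alone. Ppara, a fatty acid sensor, averaged 6.92 ± 1.35 FPKM in NEC libraries and 4.25 ± 0.406 FPKM in control libraries (SD, n = 3 each), and its call was lost without any 1 control (limma BH-adjusted p up to 0.0865). Ahr, the dioxin receptor gene, averaged 5.30 ± 1.27 FPKM in NEC and 8.47 ± 0.148 FPKM in control and fell by 0.61 on the log2 scale. Foxa3, a forkhead factor of liver and gut, averaged 2.89 ± 0.833 FPKM in NEC and 6.89 ± 1.04 FPKM in control and fell by 1.04. Neither pair of groups overlapped. The Ahr call was lost with TMM scaling, with quantile normalization and without any 1 control, and the Foxa3 call without control 1 or control 2. Nr1i2, which encodes the xenobiotic receptor PXR, had 81.3, 51.7 and 39.4 FPKM in NEC and 33.4, 31.2 and 33.5 FPKM in control and missed the threshold (log2 change 0.73, SE of 0.24, limma BH-adjusted p = 0.0539), though it passed with TMM scaling and without NEC 1 or NEC 3. The values of Ugp2, Papss1 and Nr1i2, which did not pass, were chosen for print after they were seen.

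**Figure D4:**
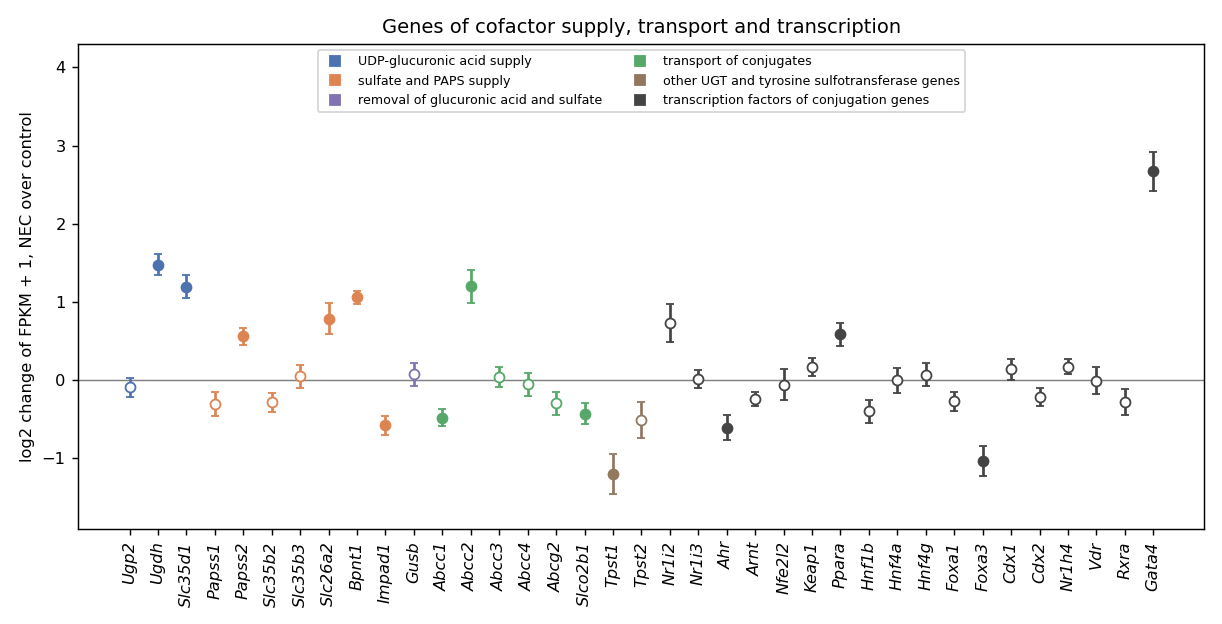
Log2 change of FPKM + 1, NEC over control, for the 37 tested genes of cofactor supply, removal, transport, related transferases and transcription, with bars of 1 SE. Filled points passed the test and colours mark the lists. Gata4 stands highest, followed by Ugdh at 1.48, Abcc2 and Slc35d1 at 1.20, and Tpst1 lies lowest at -1.20.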

How the data were processed

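Per the labels' protocols, total RNA with an integrity number above 7 went into paired-end TruSeq RNA libraries. HISAT2, SAMtools 1.3.1 and Cuffdiff with mm10 are named in the submitters' processing notes; the annotation and the strand setting are not given in the sources used here. No unit is named in the table the authors deposited, whose values were taken to be FPKM computed by Cuffdiff, per the submitters' processing notes: in single-transcript genes over 1 kb, 98.5% to 98.7% of values below 100 fragments were whole multiples, within 0.01, of 1 fragment scaled by length. Columns beginning with N were read as NEC libraries of the same number, and 55141 of 55487 identifiers matched GENCODE M21.

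Values were tested as log2(FPKM + 1) with limma 3.58.1 (R 4.3.3; trended prior variance, group as the sole term), with Benjamini-Hochberg (BH) adjustment over every gene whose 6-library mean reached 1 FPKM. A fold change on this scale understates that of low genes. All tested members are named, and of each list the called genes. The alternatives were the pseudocounts 0.1 and 0.01, a filter mean of 5 FPKM or none, TMM scaling over tested genes (without weights, trimming 30% of ratios and 5% of levels at each end), quantile normalization, a replicate block, an untrended prior, and each library left out. The members and lists were chosen with earlier results of these data known. A transcription factor gene of one list is not reported here. The test was tried on simulated data. Figures used matplotlib 3.10.9 in Python 3.11.15.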

Additional observations from a re-analysis of the deposited data

How the results depend on the processing

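Of 13 called members, 9 passed with the same direction under each of the 14 alternatives that gave them a value; Sult1b1, Ugt1a6b, Ugt1a8 and Ugt2a3 did not. The members called higher were 12 of 20 as reported, beside 1215 of 15806 genes. Under the filter at 5 FPKM they were 7 of 9, beside 939 of 6950 genes. Those called lower were then 0 in place of 1, since fewer genes were tested. Over libraries left out in turn 8 to 14 members were higher, and 1 was lower each time. The 8 were of 20 without control 1, beside 499 of 15595 genes. The 14 were of 19 without NEC 1, beside 1566 of 16029 genes. The Ugt1a sum passed throughout. Of 37 tested pathway genes, 8 were called higher over all lists, 13 with TMM scaling and 5 to 9 without single libraries. Those called lower were 6, with 2 of 26 under the 5 FPKM filter and 2 with TMM scaling. They were 3 with quantile normalization and 0 to 10 without single libraries. Among all tested genes 7.69% were higher and 30.6% lower, and 16.7% and 14% with TMM scaling. Of all genes, 1215 were called higher and 4829 lower, against 2637 and 2204 with TMM scaling, 2202 and 2387 after quantile normalization, 1746 lower under the 5 FPKM filter, and 471 to 1566 higher and 917 to 5378 lower without single libraries. The direction of genes that did not pass turned with TMM scaling for Sult1a1 (0.0707), Ugt2b36 (0.0792), Ugp2 (0.24) and Papss1 (0.0324), with quantile normalization for Sult1a1 (0.23) and Ugt2b36 (0.0562), and without NEC 1 for Ugp2 (0.00924, with a range of -0.152 to 0.00924 over libraries left out). The cause was not tested.

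No sign was seen that the replicate numbers pair the libraries. Deviations of same-numbered libraries from their group means correlated at -0.05, -0.01 and -0.07 across genes. Those of differently numbered libraries correlated at -0.03 to 0.08. With 3 libraries per group the deviations are tied to one another, so this check cannot exclude pairing. With the replicate block 11 of 20 members were higher and 1 lower, and the Ugt1a sum changed by 1.34. Of 37 pathway genes 8 were higher and 4 lower, and of all 15806 genes 856 were higher and 3230 lower. Depth limits the members under 1 FPKM.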

Other observations

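The 7 members with values but a mean under 1 FPKM were not tested. Ugt1a2 was at 1.12, 1.39 and 0.630 FPKM in NEC and at 0.463, 0.386 and 0.335 FPKM in control, without overlap. Sult5a1 was at 0.0412, 0.183 and 0.243 FPKM in NEC and at 0.402, 0.447 and 0.323 FPKM in control, and every NEC library was lower. Sult1c2 read back as 4, 4 and 21 fragments in NEC and 17, 4 and 7 in control, with overlapping groups.

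Neighbours of the clusters within 200 kb, chosen by position, did not share 1 pattern. Beside the Ugt1a cluster, Dgkd, a diacylglycerol kinase gene, was at 24.4, 27.9 and 20.3 FPKM in NEC and at 13.8, 14.1 and 13.2 FPKM in control. The groups did not overlap. Usp40, between it and the cluster, averaged 5.18 FPKM in NEC and 4.81 FPKM in control. Hjurp, on the far side, averaged 13.7 FPKM in NEC and 17.1 FPKM in control. Dnajb3, a gene inside the cluster on the other strand, averaged 1.14 FPKM in NEC and 2.21 FPKM in control. Neither Hjurp nor Dnajb3 had overlapping groups. Mroh2a, the nearest gene downstream of the cluster, was at 0.260, 0.674 and 0.497 FPKM in NEC, against at most 0.116 FPKM in control, without overlap. Spp2, which lies beyond Hjurp, was at 13.2, 14.4 and 31.2 FPKM in NEC and at 31.8, 29.8 and 34.5 FPKM in control. Its NEC 3 library stood among the controls. Beside the chromosome 5 cluster, Ythdc1 averaged 3.60 FPKM in NEC and 4.55 FPKM in control, without overlap. The casein genes Csn1s1, Csn2 and Csn1s2a were listed at 0 in all libraries. Among all tested genes, groups without overlap were found with NEC higher in 11.8% and NEC lower in 47.3%.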
